A study of Homo sapiens with 10 samples.

Results

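Intermediate filaments are the cytoskeletal polymers of animal cells, built from rod-shaped subunits that pair into coiled coils. Epithelial cells are dominated by keratins. The non-keratin subunits comprise vimentin, which is typical of mesenchymal cells, desmin of muscle, the neurofilament proteins of neurons, the co-polymerising subunits nestin and synemin, and the lamins, which line the inside of the nucleus in almost every cell. Raw RNA-seq counts of 10 such genes were taken by gene symbol from a table of 58735 genes: VIM (vimentin), NES (nestin), SYNM (synemin), NEFL, NEFM and NEFH (the light, medium and heavy neurofilament chains), DES (desmin), LMNA (the gene of lamins A and C), LMNB1 and LMNB2 (the B-type lamins).

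The cells were A253, an established human line from a squamous cell carcinoma of the salivary gland, grown with fetal bovine serum and carrying Cas9 and a guide RNA vector under blasticidin and puromycin selection. The control cells received a guide against dTomato, a sequence absent from human cells. In Cl1 and Cl10, both DUSP1-/+, paired intronic guides had removed exon 2 from part of the copies of DUSP1, which encodes a phosphatase of MAP kinases. The study selected these clones because it saw no DUSP1 protein in them by western blot. Each of Cl1 and Cl10 is 1 single-cell clone, so the effect of the genotype and that of the clone cannot be told apart, and poly(A) RNA was sequenced in 2 libraries of each group.

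The 6 libraries held 47016495 to 70986593 counts, and the 10 most abundant genes took 4.13% to 5.42% of them. No label says whether the libraries of a group came from separate cultures, so every p-value measures the spread between these libraries only. The targeted gene was at 12.94 and 11.04 CPM (read counts scaled to a common library size with TMM factors) in the control, 5.28 and 6.15 in Cl1 and 8.60 and 7.21 in Cl10. The deletion covers 1 exon and reads were counted over the whole gene, so these levels do not check the deletion itself. The control libraries differed with transcript length. The median log2 ratio of control replicate 2 to replicate 1 was 0.20 over 2900 genes with a transcript under 2 kb and -0.26 over 2182 genes of 6 kb or more, while it stayed between -0.07 and 0.03 in Cl1 and Cl10. Both comparisons with the control rest on these libraries, so values without either of them are given where they matter. All 10 squamous epithelial markers examined were detected in every group. They summed to 15107 and 15395 CPM in the control, 17884 and 17961 in Cl1 and 16219 and 16785 in Cl10.

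Of the 10 genes, 8 were abundant enough to be tested in each comparison, and DES and NEFH were not. The test was edgeR's quasi-likelihood test with Benjamini-Hochberg adjustment over all genes tested, and a gene passed at an adjusted p under 0.05. In Cl1 against the control, SYNM and NEFL were higher and VIM and NES were lower. By comparison, 12.4% of all 20153 genes tested passed as higher and 12.8% as lower. In Cl10 against the control, SYNM, LMNB1 and LMNB2 were higher and VIM was lower, where 20.6% of 19875 genes passed as higher and 21.8% as lower. The median log2 fold change of the tested members was 0.20 in Cl1 and 0.13 in Cl10, against -0.01 over all genes in both comparisons. Both comparisons used the same 2 control libraries. With 2 libraries a group, a lack of overlap alone was common: both Cl1 libraries lay above both control libraries for 30.6% of the genes tested and below for 33.0%, and those of Cl10 for 36.2% and 37.6%.

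**Figure D1:**
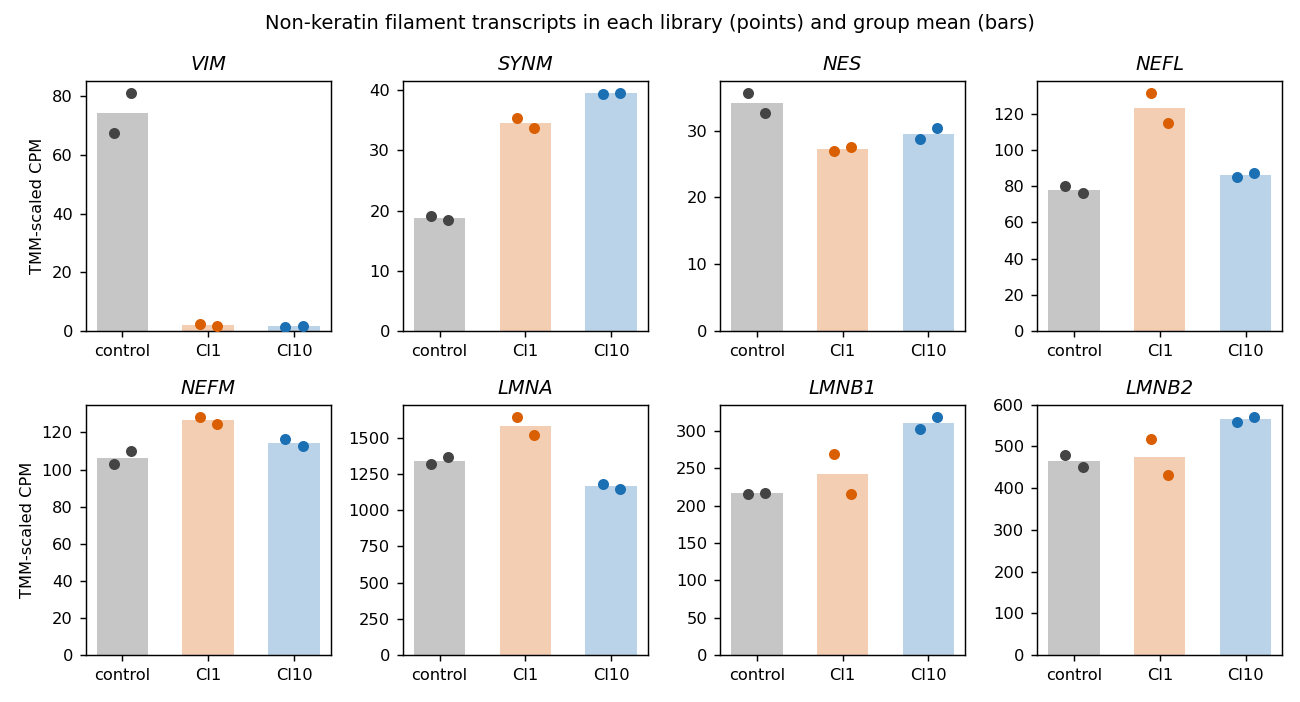
TMM-scaled CPM (vertical axes, each starting at 0) of the 8 tested genes in the control, Cl1 and Cl10; points are single libraries and bars the mean of 2. VIM falls from 67.5 and 81.1 CPM to below 2.5 CPM in both clones, while SYNM rises from 18.4 to 19.1 CPM to between 33.7 and 39.5 CPM.

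Vimentin (VIM, ENSG00000026025) lies on chromosome 10 of hg38 at 17228241 to 17237593 on the plus strand, with 10 exons in its canonical transcript. It gave 4592 and 4342 raw counts in the control libraries, 162 and 89 in those of Cl1, and 90 and 90 in those of Cl10. On the CPM scale these were 67.5 and 81.1, 2.40 and 1.81, and 1.54 and 1.87, so the control and clone libraries were far apart and the clones overlapped each other. The log2 fold change was -5.12 ± 0.17 (SE, 2 libraries a group) in Cl1, a 34.8-fold lower level with adjusted p = 3.39e-09 in edgeR's test. In Cl10 it was -5.45 ± 0.15, a 43.7-fold lower level with adjusted p = 8.05e-06. Between the clones the log2 difference, Cl10 against Cl1, was -0.32 with a 95% interval of -0.79 to 0.15, and it did not pass (edgeR adjusted p = 0.247). VIM counts stayed well above 0 in each library of both clones.

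Synemin (SYNM, ENSG00000182253), a large subunit that assembles with vimentin or desmin rather than alone, went the other way. Its gene spans 99098217 to 99135593 on the plus strand of chromosome 15 in hg38. The control libraries held 19.1 and 18.4 CPM, those of Cl1 35.4 and 33.7, and those of Cl10 39.4 and 39.5, and no library of 1 group overlapped another group. SYNM was 1.85-fold higher in Cl1 (log2 fold change 0.88 ± 0.11 SE, edgeR adjusted p = 0.000125) and 2.11-fold higher in Cl10 (1.08 ± 0.08, adjusted p = 0.000142). The difference between the clones was 0.19 (95% interval 0.06 to 0.33, edgeR adjusted p = 0.0219), and this call was lost with DESeq2 (0.20), when either Cl10 library was left out (0.20 and 0.20) and when the median of the 50 nearest genes was subtracted (0.09). The raw SYNM count per VIM count went from 0.282 and 0.227 in the control to 14.7 and 18.6 in Cl1 and 25.6 and 21.1 in Cl10.

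The 250 bases before the annotated start of each of these genes are shown because VIM and SYNM passed the test in opposite directions in both clones. They come from RefSeq on GRCh38.p14, both on the plus strand, chr10:17227991-17228240 for VIM and chr15:99104830-99105079 for SYNM, whose RefSeq start lies inside the longer span given above. Capitals mark the GC box letters GGGCGG or their reverse complement CCGCCC.
VIM: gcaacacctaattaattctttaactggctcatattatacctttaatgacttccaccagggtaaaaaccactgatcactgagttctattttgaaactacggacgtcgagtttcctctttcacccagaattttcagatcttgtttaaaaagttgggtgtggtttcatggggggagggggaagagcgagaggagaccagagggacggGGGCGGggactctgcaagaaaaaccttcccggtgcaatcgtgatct
SYNM: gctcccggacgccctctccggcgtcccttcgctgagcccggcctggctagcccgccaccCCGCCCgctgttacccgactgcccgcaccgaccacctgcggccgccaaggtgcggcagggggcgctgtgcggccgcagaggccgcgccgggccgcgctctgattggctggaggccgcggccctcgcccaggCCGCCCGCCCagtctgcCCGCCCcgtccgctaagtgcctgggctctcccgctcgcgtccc
The VIM window was 46.0% G and C and held 1 GC box match, and the SYNM window was 78.8% G and C and held 4 matches, of which 1 pair overlapped. At least 1 such match occurred in 42.6% of 35116 RefSeq promoter windows of that length. The E-box letters CAGGTG or CACCTG, read by ZEB and SNAIL repressors, were found 1 time before SYNM and not before VIM (17.5% of all windows). Neither window held the AP-1 letters TGANTCA (6.57% of windows) or the SOX letters AACAAT or ATTGTT (8.98%). All motifs were searched on both strands, and a match is a match of letters only. Only 1 annotated start was used for each gene. Whether transcription in these cells begins there was not tested, so the windows may not be the promoters in use.

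**Figure D2:**
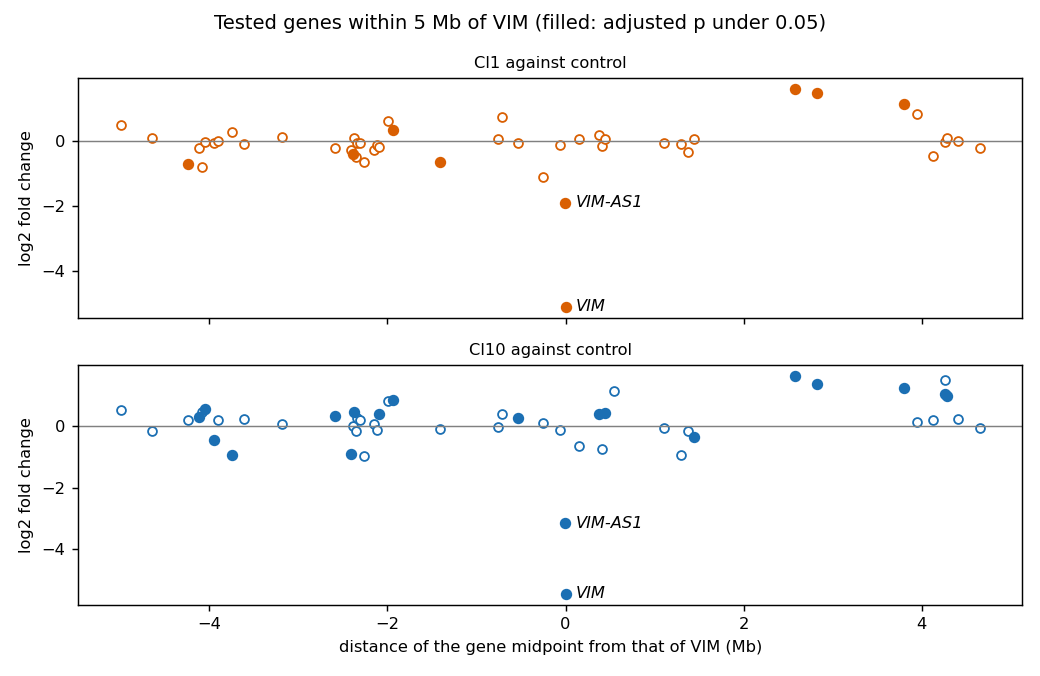
log2 fold change (vertical axis) of the tested genes within 5 Mb of VIM against the distance of their midpoints from that of VIM in Mb, for Cl1 (top) and Cl10 (bottom); filled points passed the test. VIM lies at -5.12 and -5.45, VIM-AS1 at -1.90 and -3.15, and the other genes no lower than -1.12 in Cl1 and -0.97 in Cl10.

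VIM and an antisense gene over its start had the lowest log2 fold changes within 5 Mb in both clones. VIM-AS1, a non-coding gene on the opposite strand, gave 54 and 58 raw counts in the control, 18 and 11 in Cl1 and 8 and 3 in Cl10. It was lower by 1.90 on the log2 scale in Cl1 (log2 fold change -1.90, edgeR adjusted p = 0.00259) and by 3.15 in Cl10 (-3.15, adjusted p = 0.00162). The strand setting of the counting is not given in the sources used here, so reads of VIM and of VIM-AS1 may not have been told apart. The other tested genes within 5 Mb, 47 in Cl1 and 49 in Cl10, reached no lower than -1.12 (CUBN) and -0.97 (MEIG1). The median log2 fold change of the 50 tested genes nearest to VIM on the chromosome was -0.06 in Cl1 and 0.19 in Cl10. For the other tested members this median of neighbours lay between -0.16 and 0.23 in all comparisons. Counted antisense genes also overlap SYNM and NEFM, and the same limit of the strand setting holds there. Per library, SYNM-AS1 gave 2 to 22 raw counts and SYNM-AS2 2 to 11. ENSG00000272163, over NEFM, gave 280 and 286 in the control, 214 and 179 in Cl1 and 164 and 162 in Cl10.

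Markers of other cell types were low in all groups. The 9 fibroblast markers summed to 44.8 to 50.7 CPM in the control, 46.1 to 49.2 in Cl1 and 30.5 to 32.1 in Cl10, nearly all from COL1A1 and COL3A1. COL1A2 and THY1 had at most 0.04 CPM in any library and LUM was at 0 in all 6. Of the 3 fibroblast markers tested, 0 passed in Cl1 by edgeR, 0 by DESeq2 and 0 at an unadjusted p under 0.05, and 2 were lower in Cl10, COL1A1 by a log2 fold change of -0.67 and COL3A1 by -0.54, which did not pass without Cl10 replicate 1 (-0.44). The muscle markers summed to 9.75 to 10.8 CPM in the control and Cl1 and 6.74 to 7.39 CPM in Cl10, with MYOD1 and MYF5 at 0 in all libraries, and ACTA2 was lower in both clones (-1.48 and -2.87). The neural markers, of which ELAVL4 and STMN2 were at 0 throughout, summed to 13.9 CPM in the control, 11.8 to 12.2 in Cl1 and 7.88 to 8.02 in Cl10. Among them MAP2 was lower in Cl10 (-1.40), whereas ELAVL3, at 0.13 to 0.16 CPM in the control, was higher in Cl10 (1.41), a call lost when any of the 4 libraries was left out (1.27 to 1.57). The leukocyte markers summed to 1.999 and 2.02 CPM in the control, 3.35 to 3.62 in Cl1 and 4.28 to 4.34 in Cl10, with ITGAM higher in both clones (0.73, lost without Cl1 replicate 2 at 0.65, and 1.10) and PTPRC at or below 0.21 CPM in every library. Of the 10 squamous epithelial markers, 3 were higher in both clones: CDH1, the epithelial cadherin (0.84 and 0.35), ITGA6, an integrin of hemidesmosomes (0.56 and 0.97), and PERP, a desmosomal protein (0.58 and 0.49). Without 1 clone library, CDH1 in Cl1 and ITGA6 in Cl10 still passed, while ITGA6 in Cl1, CDH1 in Cl10 and PERP in both did not. KRT17 was lower in Cl10 (-0.50), a call lost when either Cl10 library was left out. TP63 was at 527 and 399 CPM in the control and 347 and 372 in Cl1, and did not pass there by edgeR. DESeq2 called 1 marker of this list lower in Cl1. The median log2 fold change of the 10 was 0.27 in Cl1 and -0.01 in Cl10. Over all genes tested, 12.4% passed as higher and 12.8% as lower in Cl1, and 20.6% and 21.8% in Cl10. In bulk RNA, fewer cells of a type and less RNA per cell cannot be told apart. The part of these markers in the VIM values was not tested.

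Nestin (NES, ENSG00000132688), a subunit of stem and progenitor cells that needs vimentin or a like partner to assemble, lies on the minus strand of chromosome 1 at 156668763 to 156677407. It was at 35.6 and 32.6 CPM in the control, 26.9 and 27.6 in Cl1 and 28.7 and 30.3 in Cl10, and the clone libraries lay below the control, as they did for 33.0% of all genes tested in Cl1 and 37.6% in Cl10. The log2 fold change was -0.32 ± 0.11 (SE, 2 libraries a group, edgeR adjusted p = 0.0460) in Cl1 and -0.20 ± 0.09 (adjusted p = 0.0974) in Cl10. The first call was lost with DESeq2 (-0.32, adjusted p = 0.0639) and when any of control replicate 1, Cl1 replicate 1 or Cl1 replicate 2 was left out (-0.26, -0.30 and -0.34). The difference between the clones was 0.12 (95% interval -0.03 to 0.27).

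The neurofilament genes NEFM and NEFL are neighbours on chromosome 8, at 24913758 to 24919098 on the plus strand and 24950955 to 24956721 on the minus strand. Their products form the core and the side arms of the filaments of axons. NEFL (ENSG00000277586) was at 79.9 and 76.4 CPM in the control, 131 and 115 in Cl1 and 85.1 and 87.1 in Cl10. It was 1.58-fold higher in Cl1 (log2 fold change 0.66 ± 0.12 SE, edgeR adjusted p = 0.00149). In Cl10 the change was 0.14 (95% interval -0.04 to 0.33), and the clones themselves differed, Cl10 against Cl1, by -0.51 ± 0.07 (adjusted p = 5.06e-05). NEFM (ENSG00000104722) was at 103 and 110 CPM in the control, 129 and 125 in Cl1 and 116 and 112 in Cl10. Its change of 0.25 (log2) in Cl1 and that of 0.11 in Cl10 did not pass (edgeR adjusted p = 0.121 and 0.314). Within a library, NEFM gave 1.29 and 1.44 counts per NEFL count in the control, 0.978 and 1.08 in Cl1 and 1.37 and 1.29 in Cl10, with the Cl1 libraries below the other 4.

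NEFH and DES were close to the limit of these libraries. NEFH (ENSG00000100285), the heavy chain on chromosome 22, gave 2 to 6 raw counts per library. DES (ENSG00000175084), on chromosome 2, gave 1 and 0 counts in the control, 3 and 0 in Cl1 and 0 and 2 in Cl10. A difference between groups was not detectable for either gene at this depth.

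**Figure D3:**
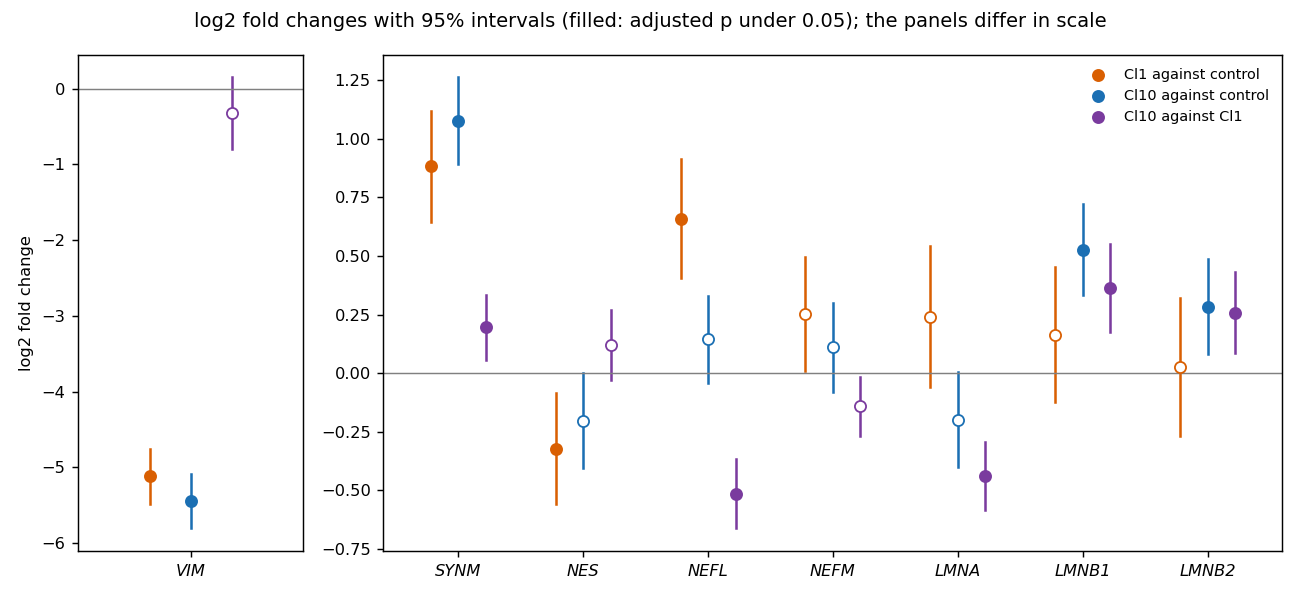
log2 fold change (vertical axes) with its 95% interval for VIM (left, own scale) and the other 7 tested genes (right), in Cl1 against control, Cl10 against control and Cl10 against Cl1; filled points passed the test. SYNM is above 0 in both clones, NEFL rises in Cl1, LMNB1 and LMNB2 rise in Cl10, and the intervals of LMNA against the control span 0 in both clones.

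The lamins were the most abundant members. LMNA (ENSG00000160789), on the plus strand of chromosome 1 at 156082573 to 156140081, encodes the A-type lamins, which are known to scale with the stiffness of a tissue. It was at 1321 and 1364 CPM in the control, 1646 and 1521 in Cl1 and 1181 and 1149 in Cl10. The Cl1 libraries lay above the control, as for 30.6% of all genes tested, and the Cl10 libraries below it, as for 37.6%. Neither change passed against the control, with log2 fold changes of 0.24 (95% interval -0.06 to 0.54, edgeR adjusted p = 0.232) and -0.20 (-0.40 to 0.00, adjusted p = 0.101). The direct comparison of the clones did pass, at -0.44 ± 0.07 (SE, adjusted p = 0.000152). Leaving out either control library brought the Cl10 change past the threshold (-0.23 and -0.18).

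LMNB1 and LMNB2 encode the B-type lamins, which stay farnesylated and bound to the nuclear membrane. LMNB1 (ENSG00000113368), on chromosome 5 at 126776623 to 126837020, was at 216 and 217 CPM in the control, 269 and 216 in Cl1 and 302 and 319 in Cl10. One Cl1 library lay at the control level and the Cl10 libraries were above all others. The log2 fold change was 0.53 ± 0.08 (SE, edgeR adjusted p = 0.00259) in Cl10 and 0.16 (95% interval -0.12 to 0.45) in Cl1, and Cl10 exceeded Cl1 by 0.36 ± 0.09 (adjusted p = 0.00412). Without Cl10 replicate 2 the Cl10 change was 0.49 and did not pass. LMNB2 (ENSG00000176619), on the minus strand of chromosome 19 at 2427638 to 2456959, was at 481 and 452 CPM in the control, 518 and 431 in Cl1 and 560 and 572 in Cl10. It was higher by 0.28 ± 0.09 in Cl10 (edgeR adjusted p = 0.0335), a call lost when either Cl10 library was left out (0.30 and 0.27), while in Cl1 the log2 fold change was 0.03 (-0.27 to 0.32).

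The proportions of the lamins were compared within each library. LMNA gave 6.12 and 6.28 counts per LMNB1 count in the control, 6.13 and 7.06 in Cl1, and 3.91 and 3.60 in Cl10. The Cl10 libraries lay well below the other 4. LMNB2 gave 2.23 and 2.08 counts per LMNB1 count in the control, 1.93 and 1.998 in Cl1 and 1.85 and 1.79 in Cl10, a narrower range.

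In the direct comparison of Cl10 with Cl1, 3 members were higher (SYNM, LMNB1 and LMNB2) and 2 lower (LMNA and NEFL), where 24.9% of 19818 genes tested passed as higher and 24.1% as lower. The median over the tested members was -0.01 on the log2 scale. LMNB2 exceeded its level in Cl1 by 0.26 ± 0.08 (SE, edgeR adjusted p = 0.0175), a call lost when either Cl10 library was left out (0.28 and 0.25), and NEFM was at -0.14 (adjusted p = 0.0567).

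Levels of different genes were compared per kilobase of the canonical transcript. In the control the mean order was LMNA at 422 CPM per kb, LMNB2 at 100.6, LMNB1 at 74.9, VIM at 34.5, NEFM at 32.5, NEFL at 21.8, NES at 6.13 and SYNM at 2.55, with NEFH at 0.019 and DES at 0.0033. The ranges of VIM (31.3 to 37.7) and NEFM (31.4 to 33.7) overlapped, and no other neighbours did. VIM was in rank 8 in both clones, at 0.978 CPM per kb in Cl1 and 0.791 in Cl10, below SYNM and NES. SYNM rose to 4.70 in Cl1 and 5.37 in Cl10, where its range overlapped that of NES (5.16 to 5.45), and the ranges of NEFH and DES overlapped in both clones. When the length was taken over all annotated exon bases, VIM was in rank 6 in the control, with 14.4 CPM per kb, and again in rank 8 in both clones.

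**Figure D4:**
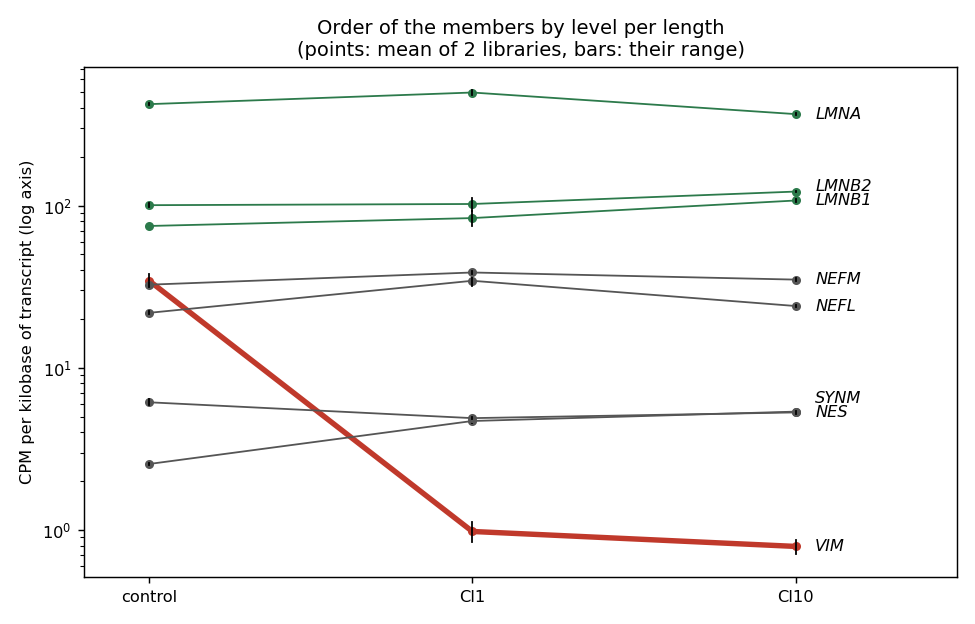
Mean TMM-scaled CPM per kilobase of canonical transcript (vertical log axis) of the 8 tested genes in the control, Cl1 and Cl10; vertical bars span the 2 libraries of a group. VIM goes from rank 4 at 34.5 in the control to rank 8 at 0.978 in Cl1 and 0.791 in Cl10, while LMNA, LMNB2 and LMNB1 keep the 3 highest levels.

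VIM supplied 33.3% and 37.3% of the summed CPM per kb of the 7 non-lamin members in the control libraries, 1.29% and 1.04% in Cl1 and 1.01% and 1.23% in Cl10. Even in the control these transcripts were a small part of the filament pool. The 7 genes made up 1.11% and 1.12% of their sum with 55 keratin genes in the control, 0.837% and 0.786% in Cl1 and 0.852% and 0.896% in Cl10. These shares leave out non-keratin filament genes beyond the 7. INA, the largest of those left out, was at 42.6 and 43.4 CPM per kb in the control, above VIM. It was at 57.3 and 53.4 in Cl1 and 90.0 and 91.2 in Cl10, so the shares do not describe all non-keratin filament transcripts. The keratins summed to 8386 and 8941 CPM per kb in the control, 10282 and 10177 in Cl1 and 8211 and 7784 in Cl10.

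The 5 genes with the pattern most like VIM were C6orf99, SLC6A15, SUN3, PLA2G4A and IL24. Likeness was the Euclidean distance between log2 CPM values centred on each gene's mean over the 6 libraries, among 11654 genes with a mean of at least 5 CPM, and it was 1.73, 1.92, 2.66, 2.80 and 2.92. The points are 3 pairs of libraries, so this likeness mostly reflects the difference between the control and the clones. SUN3, which encodes a SUN-domain protein of the nuclear envelope, was at 14.6 and 17.2 CPM in the control, 2.37 and 2.34 in Cl1 and 1.66 and 1.56 in Cl10. The log2 fold changes of the 5 genes ranged from -3.53 for C6orf99 to -2.75 for SUN3 in Cl1, and that of PLA2G4A in Cl10 was -6.15. All 5 were below 5 CPM in each clone library, so they met the minimum mean through the control. They were also picked for nearness to VIM in these libraries, so their falls are no separate result.

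**Figure D5:**
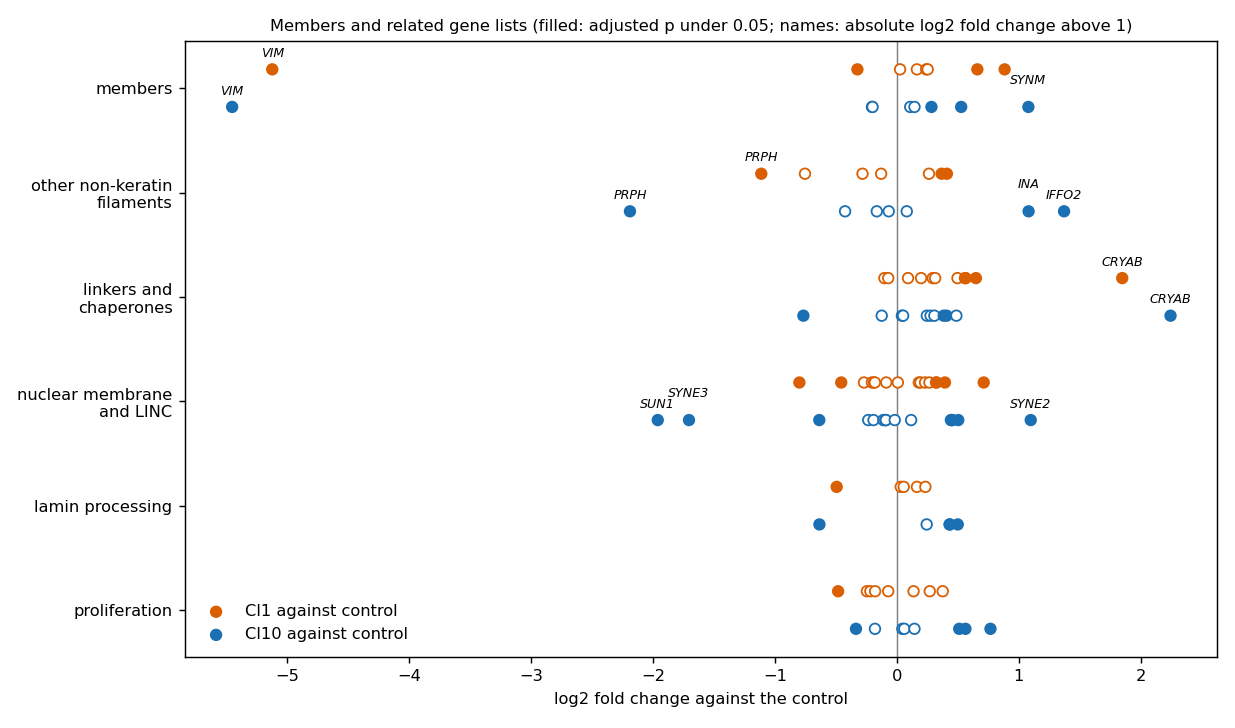
log2 fold change against the control (horizontal axis) of the members and of 5 related gene lists (rows), for Cl1 and Cl10; filled points passed the test and names mark passing genes beyond 1 in either direction. VIM lies at -5.12 and -5.45, and the next lowest are PRPH at -2.19 and SUN1 at -1.96, both in Cl10.

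Among 8 further non-keratin filament genes, 7 were tested, of which 2 were higher and 1 lower in each clone against the control. Of all genes tested, 12.4% passed as higher and 12.8% as lower in Cl1, and 20.6% and 21.8% in Cl10. INA, the neuronal subunit alpha-internexin, was at 138 and 141 CPM in the control, 186 and 174 in Cl1 and 293 and 296 in Cl10. It was thus higher in both clones (log2 fold changes 0.37 and 1.08, edgeR adjusted p = 0.0343 and 0.000151), and higher in Cl10 than in Cl1 by 0.71. IFFO2, which encodes a filament family orphan, was also higher in both, by 0.41 and 1.37. PRPH, the peripheral neuron subunit peripherin, was lower in both (-1.11 and -2.19), from a control level of 2.20 and 1.38 CPM. In Cl1 each of these 3 calls was lost without 1 library or another, IFFO2 without control replicate 2 (0.23) or either Cl1 library (0.51 and 0.31), PRPH without control replicate 1 (-0.73) or Cl1 replicate 1 (-0.74), and INA without either Cl1 library (0.32 and 0.42), whereas those in Cl10 were kept. Over the 7 tested genes the median was -0.13 in Cl1 and -0.07 in Cl10, and without control replicate 1 it was 0.16 and 0.34.

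Filament linkers and chaperones (11 genes, all tested) gave 4 higher and 0 lower in Cl1 by edgeR (0 lower by DESeq2 and 0 at an unadjusted p under 0.05) and 3 higher and 1 lower in Cl10, with medians of 0.31 and 0.28. Most of these transcripts are long and were lower in control replicate 2 than in replicate 1, such as PLEC, the versatile linker plectin (1944 and 1092 CPM), DST (559 and 363) and MACF1 (363 and 203). Without control replicate 2 the list median became 0.16 for Cl1 and -0.06 for Cl10, with 3 higher and 0 lower and 5 higher and 5 lower (edgeR). Without control replicate 1 they were 0.64 and 0.52, with 9 higher and 0 lower and 9 higher and 1 lower, so neither the size nor, in Cl10, the direction of the list median was stable. Without Cl1 replicate 1 none of the 11 passed in Cl1, CRYAB (1.32) and DSP (0.64) included. CRYAB, a small heat shock protein that binds desmin and vimentin filaments, was higher in both clones (1.85 and 2.24), although its level was only 0.18 and 0.37 CPM in the control. DSP, the desmosomal anchor of keratins, was higher in Cl1 (0.65, adjusted p = 0.0132 in edgeR's test) and at 0.05 in Cl10, where leaving out control replicate 1 gave 0.33 and leaving out control replicate 2 gave -0.20. HSPB1, another small heat shock protein, was lower in Cl10 (-0.77) and at -0.07 in Cl1. The changes of PLEC, 0.20 and 0.25, did not pass. Not all of the higher calls in Cl10 were kept without Cl10 replicate 1 or replicate 2, where the list median was 0.29 and 0.27. For all genes tested on all libraries, 12.4% were higher and 12.8% lower in Cl1, and 20.6% and 21.8% in Cl10.

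Of 16 genes of the inner nuclear membrane and of the LINC complex, which ties the nucleus to the cytoskeleton, 4 were higher and 2 lower in Cl1 and 5 were higher and 3 lower in Cl10. Among all genes tested the shares were 12.4% higher and 12.8% lower in Cl1, and 20.6% and 21.8% in Cl10. SYNE3, the nesprin that binds plectin and through it intermediate filaments, was lower in both clones (log2 fold changes -0.80 and -1.70, edgeR adjusted p = 0.0067 and 0.000727). SUN1, which binds lamin A, was at 232 and 201 CPM in the control, 186 and 193 in Cl1 and 56.0 and 54.9 in Cl10. It was lower in Cl10 (-1.96), where the median of its 50 nearest genes was -0.77. In Cl1 it was at -0.19 and did not pass. SYNE2, a giant nesprin, was higher in Cl10 (1.10) and did not pass in Cl1 (0.18), with control libraries at 782 and 464 CPM. Without control replicate 1 SYNE2 was at 0.60 in Cl1, and without control replicate 2 at -0.15. The medians of the 16 genes were 0.09 and -0.09, and that in Cl1 was -0.02 without control replicate 2. Without 1 clone library, 1 gene was higher in Cl1 and 2 in Cl10.

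The lamin processing enzymes, 5 genes that farnesylate, cleave or methylate the ends of lamins, gave 3 higher and 1 lower in Cl10 by edgeR's test. In Cl1 they gave 1 lower and 0 higher by edgeR, with 0 higher by DESeq2 and 0 at an unadjusted p under 0.05. The edgeR shares over all genes tested were 20.6% higher and 21.8% lower in Cl10, and 12.4% and 12.8% in Cl1. RCE1, ICMT and ZMPSTE24 were higher in Cl10, by 0.50, 0.43 and 0.43. FNTA, the shared subunit of the farnesyl and geranylgeranyl transferases, was lower in Cl10 (-0.63), and FNTB, the other farnesyl transferase subunit, was lower in Cl1 (-0.49). Without 1 clone library, the calls of ICMT, ZMPSTE24 and FNTB were lost.

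Transcripts of LMNB1 and of the proliferation markers were set side by side because LMNB1 is known to fall in cells that leave the cell cycle for good. Of 8 such markers, 3 were higher and 1 lower in Cl10. In Cl1, 1 was lower and 0 were higher by edgeR, with 0 higher by DESeq2 and 1 at an unadjusted p under 0.05. By edgeR, 20.6% of all genes tested were higher and 21.8% lower in Cl10, and 12.4% and 12.8% in Cl1. MCM2, PCNA and MKI67 were higher in Cl10 by 0.77, 0.56 and 0.51, beside 0.53 for LMNB1. The median log2 fold change of all 8 markers was only 0.10 in Cl10 and -0.12 in Cl1. The call of MKI67 was lost without either Cl10 library (0.56 and 0.47). BUB1 was lower in both clones (-0.48 and -0.34), calls that were lost without Cl1 replicate 2 (-0.38) and without either Cl10 library (-0.31 and -0.35). The part of these markers in the LMNB1 values was not tested.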

How the data were processed

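Per the submitters' notes and the study's methods, the authors aligned paired reads to hg38 with HISAT2, counted them per gene with HTSeq and deposited raw counts. The annotation and the strand setting are not given in the sources used here. StringTie and DESeq are also named in the notes. Columns were matched to samples by name, 0 sample columns were left unused, and the SOX2 libraries were not analysed here.

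The 10 members and all gene lists were chosen with earlier results of these data known. Each of 3 comparisons was fitted on its own 4 libraries with edgeR 4.0.16 in R 4.3.3 (filterByExpr, TMM, glmQLFit, glmQLFTest), with Benjamini-Hochberg adjustment over all genes tested. The SE was taken from the ratio of each log2 fold change to the root of its F statistic. The fits were tested on simulated data. Genes were named by fixed rules: all members, at most 4 genes a list (those passing in both clones, then the largest changes), and the 5 genes closest to VIM. CUBN and MEIG1 in the VIM neighbourhood, PLEC, DST, MACF1, all 5 lamin enzymes and the marker genes were named after their values were seen. Positions and lengths are from GENCODE v44. Protein sequences were not used here. Alternatives covered normalization, filters, DESeq2 1.42.0, a shared fit, a replicate block, correction for the median of 50 neighbours, and each library left out. The length over all exon bases, the gene lists without each library and the split by transcript length were chosen after seeing the data.

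Replicate libraries differed beyond counting noise: a chi-square test gave p under 0.05 for 58.5% of genes with at least 100 counts in the control, 47.3% in Cl1 and 23.6% in Cl10. Counts of 47016495 to 70986593 per library limit the precision for genes such as DES and NEFH.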

Additional observations from a re-analysis of the deposited data

Results flagged for a closer look

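For 5 of the 8 tested members the clones differed from each other in the direct comparison, Cl10 against Cl1, by edgeR's quasi-likelihood test. Such differences were common, as 24.9% of all 19818 genes tested passed as higher and 24.1% as lower. The limits of the SYNM and LMNB2 calls are given above. The log2 differences were 0.19 for SYNM, -0.44 for LMNA, 0.36 for LMNB1, 0.26 for LMNB2 and -0.51 for NEFL. These values come from 2 libraries of 1 clone each, so they compare 2 clones and not 2 genotypes.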

How the results depend on the processing

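Of 288 values (24 member comparisons under 12 alternatives each), 250 kept their direction and their side of the threshold, 20 lost the call, 13 gained it and 5 changed sign. VIM and SYNM against the control kept their calls under each of these 12 alternatives. SYNM in Cl1, at 0.88, did not reach the further threshold of a log2 fold change above 1 used below. The sign changes were all in Cl1 against control and in genes that did not pass: LMNB1 was at -0.064 after subtraction of the median of its neighbours and ranged from -0.0030 (without Cl1 replicate 1) to 0.32 with 1 library left out, and LMNB2 was at -0.046 with library size only and ranged from -0.11 (without Cl1 replicate 1) to 0.16, with -0.016 without control replicate 2. The cause was not tested.

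With a log2 fold change above 1 also required, which by construction leaves fewer genes, the members higher and lower were 0 and 1 in Cl1, 1 and 1 in Cl10 and 0 and 0 in Cl10 against Cl1 (edgeR), and all genes were 861 and 659, 1188 and 1479, and 886 and 1245. The lower members in Cl1 were 1 (VIM) with RLE size factors and with DESeq2. One fit over 6 libraries left 1 member higher in Cl10 against Cl1 (LMNB1), and LMNB2 in Cl10 also lost its call there and after subtraction of the neighbours' median (0.21). With library size only, all genes split into 1942 higher and 3191 lower in Cl1, and 5910 and 3939 in Cl10 against Cl1, beside 2489 and 2575, and 4932 and 4774.

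With 1 library left out, where the lone library is assumed to vary like the others, the members higher ranged from 2 to 3 in Cl1, 1 to 4 in Cl10 and 1 to 3 in Cl10 against Cl1, and those lower from 1 to 2, 1 to 3 and 2 to 3. All genes higher ranged from 1444 to 3565, 2376 to 5914 and 3598 to 5451, and those lower from 1257 to 3581, 2765 to 5974 and 3642 to 5241. Against the control, the lowest counts of all genes came without a clone library and the highest without control replicate 1, and between the clones without a Cl10 library and without Cl1 replicate 1. Calls were gained in Cl10 for LMNA and NES (lower) without either control library, for NEFL (higher, 0.17) without control replicate 1 and for NEFM (higher, 0.15) without control replicate 2, and in Cl1 for NEFM without control replicate 2 (0.30). Between the clones NEFM passed without either Cl1 library (-0.12 and -0.17).

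Deviations of same-numbered libraries correlated at -0.265 (control and Cl1), -0.260 (control and Cl10) and 0.0017 (Cl1 and Cl10), so no shared shift by replicate number was seen. The negative values both involve the control, whose libraries differed with transcript length. These values therefore do not settle whether same-numbered libraries were prepared together. With a replicate block, 2 members were higher and 1 lower in Cl1, and 2 and 1 in Cl10, where NES in Cl1 and LMNB2 in Cl10 (-0.32 and 0.28) lost their calls.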
